A study of Mus musculus with 16 samples.

Results

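The regions described here were 819 wide OCT4 peaks of mostly non-repeat sequence, out of 26704 peaks in the merged OCT4 list of 2TS22C mouse embryonic stem (ES) cells. They were chosen by 2 properties of the list itself, a width of 750 to 5000 bp and less than 50% lower-case (repeat-masked) bases in the reference genome. The width limit alone was met by 1185 peaks. They were compared with 10213 peaks of 300 to 500 bp under the same repeat limit, out of 11867 of that width. The study asked how the loss of SOX2 or OCT4 alters chromatin in ES cells, and comprised 16 ChIP-seq libraries in 8 groups, each with 2 replicates. In 2TS22C cells the endogenous Sox2 gene is inactive and SOX2 comes from a transgene that doxycycline (dox) shuts off. OCT4 was profiled without dox (SOX2 ON) and after 26 hr at 1 μg/ml (SOX2 OFF), in cells kept in serum with LIF and inhibitors of GSK3 and MEK. By immunofluorescence the paper still found residual SOX2 at 26 hr, so SOX2 OFF does not mean free of SOX2. The list holds the start and end of each merged peak and no value per library, so SOX2 OFF was not compared with SOX2 ON, no read depth stands behind a value, and a width is that of the union of the peaks that were joined.

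OCT4 (encoded by Pou5f1) is a POU-domain transcription factor that binds the octamer ATGCAAAT, and in ES cells it often binds next to the HMG-box factor SOX2 on a composite OCT4::SOX2 motif, a SOX site joined to an octamer. Together with NANOG, ESRRB and Krüppel-like factors the pair occupies enhancers of pluripotency genes. A peak called on a ChIP-seq signal spreads to both sides of the bound site by about the length of the DNA fragments, so a single site usually gives a narrow peak.

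The sequences below, all written 5′ to 3′ on the forward strand of GRCm38 (mm10), are 200 bp stretches of wide peaks. The first set are the wide peaks with the most non-overlapping matches to the composite motif, each shown around its closest match, with composite matches and octamers in capitals. The composite was the 15 bp join of the SOX site CATTGTT and the octamer, on either strand with at most 3 mismatches. A further peak with 2 matches, at the promoter of Fbxo15, belongs to this set and is named only.
Il3ra intron, chr14:14352950-14353149: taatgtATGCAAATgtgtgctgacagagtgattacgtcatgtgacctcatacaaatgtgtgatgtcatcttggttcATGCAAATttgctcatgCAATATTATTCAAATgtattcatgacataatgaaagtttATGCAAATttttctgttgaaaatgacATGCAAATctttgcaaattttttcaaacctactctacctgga
Arhgap25, upstream, chr6:87545722-87545921: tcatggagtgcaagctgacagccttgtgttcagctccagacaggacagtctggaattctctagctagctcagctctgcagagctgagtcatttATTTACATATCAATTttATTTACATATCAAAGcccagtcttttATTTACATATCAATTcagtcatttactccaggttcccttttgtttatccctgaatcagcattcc
Dusp6, downstream, chr10:99353593-99353792: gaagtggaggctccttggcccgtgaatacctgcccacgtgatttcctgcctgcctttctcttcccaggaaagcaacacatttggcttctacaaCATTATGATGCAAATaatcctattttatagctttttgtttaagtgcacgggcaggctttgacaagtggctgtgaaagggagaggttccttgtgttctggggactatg
Sox5 intron, chr6:144251684-144251883: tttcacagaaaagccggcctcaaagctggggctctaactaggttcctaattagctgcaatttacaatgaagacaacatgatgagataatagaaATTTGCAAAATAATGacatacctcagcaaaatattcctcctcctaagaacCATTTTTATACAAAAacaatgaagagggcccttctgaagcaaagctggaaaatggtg

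The second set lies near genes of pluripotency and LIF signalling. It was picked after its values were seen, to show how differently equipped wide peaks were, and it carries composite matches, octamers and SOX cores (CCATTGT or CCTTTGT) in capitals.
Lifr, chr15:7115785-7115984: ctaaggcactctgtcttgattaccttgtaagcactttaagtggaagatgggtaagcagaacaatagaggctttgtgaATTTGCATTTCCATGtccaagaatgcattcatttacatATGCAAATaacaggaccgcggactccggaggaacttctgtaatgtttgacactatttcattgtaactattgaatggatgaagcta
Klf5, downstream, chr14:99340164-99340363: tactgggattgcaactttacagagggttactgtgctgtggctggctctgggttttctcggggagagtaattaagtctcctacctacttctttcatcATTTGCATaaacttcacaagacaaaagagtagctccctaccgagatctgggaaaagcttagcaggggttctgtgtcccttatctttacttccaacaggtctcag
Klf5, upstream, chr14:99278771-99278970: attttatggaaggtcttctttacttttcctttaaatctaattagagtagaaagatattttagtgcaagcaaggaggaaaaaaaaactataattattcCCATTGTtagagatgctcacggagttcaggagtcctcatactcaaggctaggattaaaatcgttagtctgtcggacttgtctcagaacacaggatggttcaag
Nanog, upstream, chr6:122702791-122702990: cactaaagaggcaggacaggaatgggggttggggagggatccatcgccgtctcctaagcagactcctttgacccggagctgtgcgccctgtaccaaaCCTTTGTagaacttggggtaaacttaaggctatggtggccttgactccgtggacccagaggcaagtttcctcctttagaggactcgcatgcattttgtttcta

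The third set shows the middle of wide peaks classed as promoter-proximal, the first rich in CpG dinucleotides and the second with none, with CG in capitals. This class takes the start of any annotated transcript of a protein-coding gene, also inside the gene. Both midpoints were intronic, 0.845 kb downstream of such a start for Ran and 0.346 kb for Hnrnpa3.
Ran, chr5:129021017-129021216: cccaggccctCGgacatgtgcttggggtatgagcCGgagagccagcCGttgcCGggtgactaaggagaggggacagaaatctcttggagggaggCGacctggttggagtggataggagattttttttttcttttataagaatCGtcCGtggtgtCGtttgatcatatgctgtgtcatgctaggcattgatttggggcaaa
Hnrnpa3, chr2:75662735-75662934: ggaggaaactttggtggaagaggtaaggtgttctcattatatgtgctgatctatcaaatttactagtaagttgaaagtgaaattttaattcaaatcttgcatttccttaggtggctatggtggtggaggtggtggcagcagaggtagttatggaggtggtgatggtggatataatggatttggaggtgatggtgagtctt

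The 819 widths ran from 750 to 3724 bp, with quartiles of 797, 857 and 964 bp. Most therefore lay close to the lower limit, and 156 reached 1000 bp while 2 exceeded 2000 bp. At the limit, the narrowest members of 750 bp, nearest to 4930447C04Rik, Irx1 and Naa30, stood beside peaks of 749 bp nearest to Acsl3, Tnfrsf19 and Zc3h12a that were left out. The repeat limit separated a peak of 917 bp near Slc9a8 with 49.7% lower-case bases from one of 1028 bp on chromosome 9 with 50.1%. Lower-case bases made up a median of 13.4% of a member and 10.3% of a comparison peak. Width and repeat content chose the members and were not tested.

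**Figure D1:**
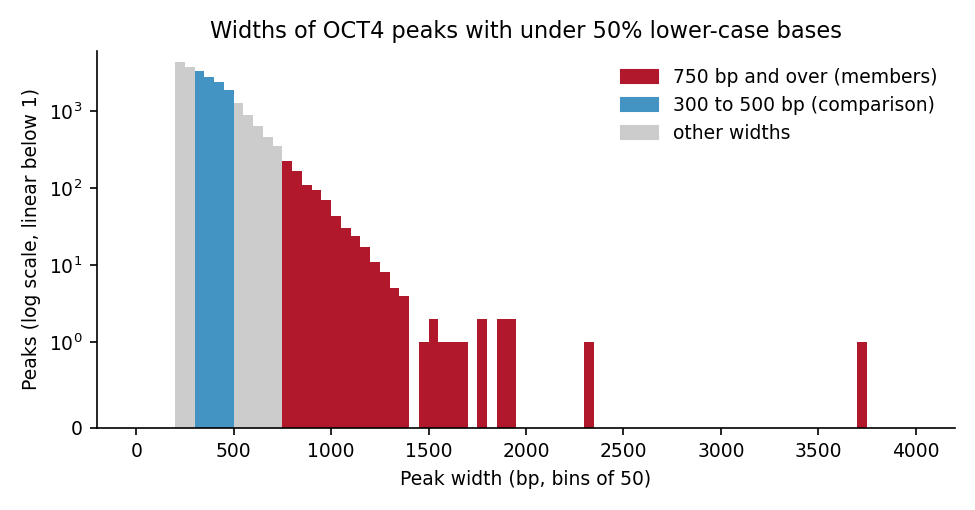
Number of OCT4 peaks with less than 50% lower-case bases (y axis, log scale, linear below 1) against peak width in bins of 50 bp (x axis). Members (red) form the thinning right tail of one continuous distribution, with 156 at 1000 bp or more and the widest at 3724 bp.

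Repeat masking did not remove all repeated sequence. In 21 members (2.56%) more than 50% of the 31-mers were multi-copy, meaning that the genome holds them more than once, against 134 (1.31%) comparison peaks, and 441 members (53.8%) had no such 31-mer at all. These 21 included peaks at the zinc finger genes Zfp600 and Zfp960, and at Duxf3 and AW822073 on chromosome 10. Reads from such copies cannot be placed with certainty, and the part this played in the widths was not tested.

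The 10 widest members were of several kinds. The widest, 3724 bp at chr17:39843107-39846830, lay over the non-coding gene Gm26917, and the ninth, 1679 bp at chr17:39847038-39848716, over Gm42418 and AY036118, which are annotated transcripts known to carry ribosomal RNA sequence. Both were CpG-rich, with observed-to-expected CpG ratios of 0.936 and 1.06 and GC contents of 67.7% and 60.1%. The second, 2326 bp, covered AW822073 with 69.5% multi-copy 31-mers. Next came an intron of Sfi1 (1949 bp), the start of Ran (1921 bp), which encodes the GTPase of nuclear transport, and the Il3ra intron (1898 bp) whose sequence is shown above. St6galnac1 (1896 bp, intronic) and a site 45.6 kb upstream of Slc44a3 (1606 bp) were distal. So was a peak of 1767 bp at chr13:112439183-112440949, 24.0 kb upstream of Il6st, which encodes the gp130 subunit shared by receptors of the LIF family. Hnrnpa3 (1751 bp), which encodes an RNA-binding protein, completed the group. In its analysis the paper removed peaks above 5 kb, peaks also called in input samples and blacklisted regions. The list used here still holds 1 peak above 5 kb, and no input or blacklist filter was applied. Whether the widest members would pass such a filter was not tested, and the 31-mer measure sees only copies held by the reference genome.

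Among these 10 the composite motif was found in the Il3ra peak and in no other. The Il3ra member (chr14:14352610-14354507, 3.94 kb downstream of the TSS) held 8 matches, all on the forward strand and all with 3 mismatches, spread over 1366 bp. It also held 31 octamers, beside 8 in the next richest member, in a non-coding transcript near Rab10. None of its 31-mers was multi-copy and 1.16% of its bases were lower-case, so that neither measure marks it as repeated, although its octamers recur along 1 strand as in the stretch shown above. The Arhgap25 member (792 bp) held 3 matches within 43 bp, in a short stretch of repeated sequence. The Dusp6 member (1342 bp, 88.2 kb downstream of the gene for an ERK phosphatase, over the non-coding B530045E10Rik) held 2 matches 738 bp apart on opposite strands, and the Sox5 member (1297 bp) held 2 matches 50 bp apart.

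The central 200 bp of wide peaks carried the composite motif less often than that of comparison peaks. It was present in 29 of 819 members (3.54%, 95% Wilson interval 2.48 to 5.04%) and in 1110 of 10213 comparison peaks (10.9%, 10.3 to 11.5%), with an odds ratio of 0.301 (0.207 to 0.438, p = 1.065e-13, two-sided Fisher's exact test). The octamer was found in 3.42% against 8.60% (odds ratio 0.376, p = 1.379e-08, Fisher's exact test), and the SOX core in 14.5% against 21.4% (odds ratio 0.624, p = 1.644e-06, Fisher's exact test). The composite motif was also the scarcer one in members within classes of GC content, with an odds ratio of 0.296 over 4 classes. A window of 200 bp covers a smaller part of a wide peak, and the middle of a joined interval need not be near a bound site. Both follow from the width that chose the members, and their part in these shares was not tested. Peaks are units of the list and not replicates, so these p-values say how the groups of regions differ and not what another experiment would give, and the intervals cover counting error only.

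The whole of a wide peak gave another picture. Over their full width 176 members (21.5%) held at least 1 composite match, beside 75 of 1591 windows of the same width centred 5 kb to each side (4.71%), an odds ratio of 5.53 (4.16 to 7.36, p = 3.786e-35, Fisher's exact test). In comparison peaks the shares were 13.0% and 1.68%, with an odds ratio of 8.74 (7.74 to 9.88). Per kb of sequence, members held 0.271 matches against 0.0527 in their flanks, a ratio of 5.14, and comparison peaks 0.347 against 0.0437, a ratio of 7.94. Octamers were as dense in members as in comparison peaks, 0.319 and 0.316 per kb, and 0.278 per kb in members without the Il3ra peak. The SOX core stood at 0.845 and 0.947 per kb. Because a wider window holds more chance matches, shares over the full width were set against flanks of the same width and not against the other set. Flanks that overlapped any listed OCT4 peak or held undetermined bases were left out. The test took peaks and flanks as separate units and ignored which flank belonged to which peak.

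In wide peaks the matches were densest away from the midpoint. The match nearest to the midpoint in each of the 176 members was a median of 208 bp away, with quartiles of 139 and 279 bp. In 1325 comparison peaks the median was 40 bp, with quartiles of 17 and 74 bp. These distances cannot pass the peak edge, so their medians partly follow the widths that chose the sets. Densities per kb count only the sequence that each set covers at a given distance. They still depend on width, because a given distance from the midpoint lies nearer to the edge in a narrower peak. From the midpoint outward in steps of 50 bp, members held 0.183, 0.244 and 0.195 matches per kb within 150 bp, then 0.427, 0.452 and 0.440 per kb between 150 and 300 bp, and 0.0917 per kb between 350 and 400 bp. In comparison peaks the density fell at each step, from 0.769 per kb within 50 bp of the midpoint to 0.0261 per kb beyond 200 bp. That last step lies wholly within the outer 50 bp of comparison peaks. The part of this in the contrast with members at the same distance was not tested. In the 156 members of at least 1000 bp no match lay within 50 bp of the midpoint, and the density was highest, at 0.769 per kb, between 300 and 350 bp from it.

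**Figure D2:**
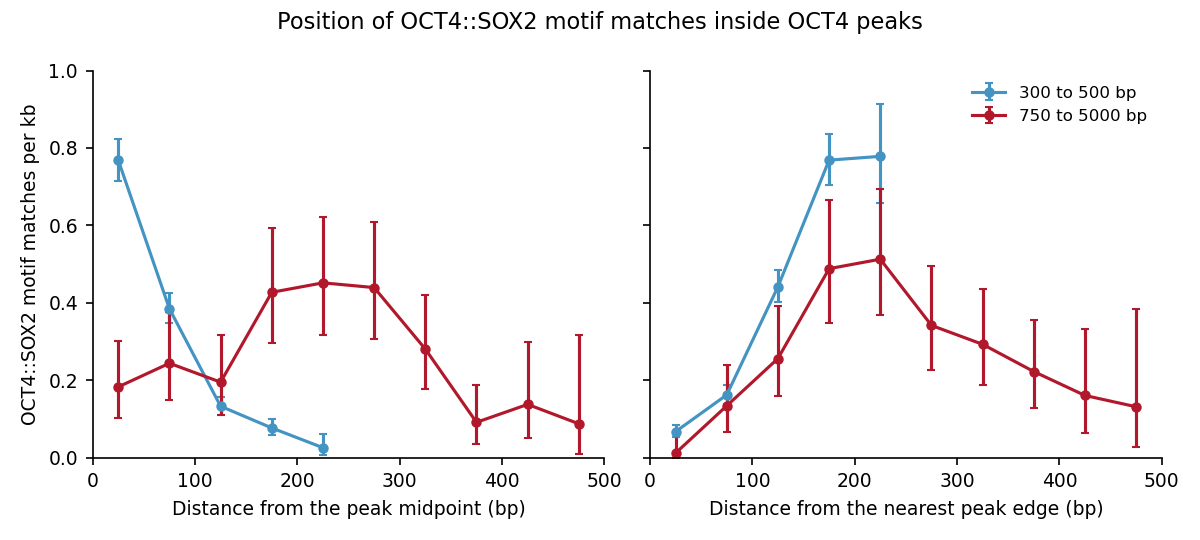
Density of OCT4::SOX2 motif matches per kb (y axis) against distance in bp from the peak midpoint (left) and from the nearest peak edge (right), in 50 bp bins, for wide peaks (red) and comparison peaks (blue). Bars are 95% exact Poisson intervals of the counts. Wide peaks peak at 0.452 per kb between 200 and 250 bp from the midpoint. Comparison peaks are at 0.0261 per kb there, but that bin lies within their outer 50 bp. The widths that chose the sets therefore enter this contrast.

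Measured from the edges, both sets looked more alike. Matches were nearly absent from the outer 50 bp, at 0.0122 per kb in members and 0.0676 per kb in comparison peaks. Density then rose to 0.513 per kb in members and 0.778 per kb in comparison peaks at 200 to 250 bp from the nearest edge, and in members it declined farther inside, to 0.161 per kb at 400 to 450 bp. Octamers followed the same course in members, with 0.232 per kb within 50 bp of the midpoint and 0.464 per kb at 250 to 300 bp from it. The SOX core was spread more evenly, between 0.506 and 1.16 per kb over all 10 steps.

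**Figure D3:**
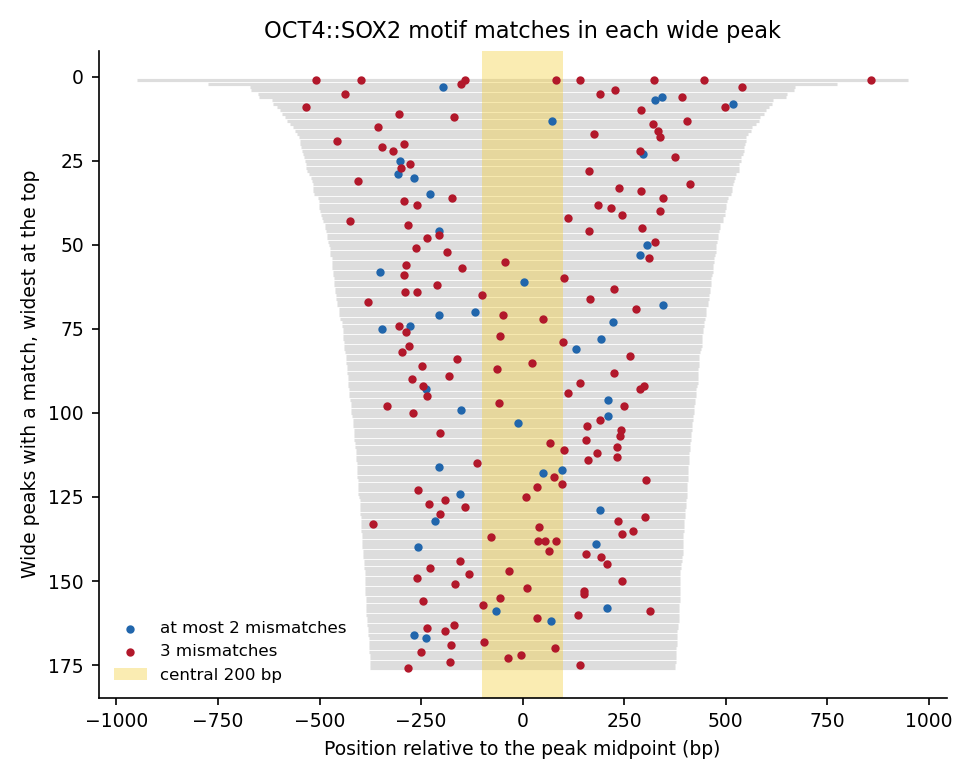
Each grey line is 1 of the 176 wide peaks with an OCT4::SOX2 motif match, drawn to scale in bp around its midpoint (x axis) and ordered by width (y axis, widest at the top). Dots are matches, blue with at most 2 mismatches (41 of 202) and red with 3, and the yellow band is the central 200 bp. The band covers only a minor part of each width, and most matches lie outside it.

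The same matches were then counted in equal windows inside each peak. Each member was searched in a 200 bp window reaching from 100 to 300 bp inside its lower edge and in another inside its higher edge, called shoulders here. These windows were placed after the positions had been seen, so the counts describe the profile and centre and shoulder were not tested against each other. The composite motif occurred in 66 lower shoulders (8.06%) and 59 higher shoulders (7.20%), against 29 centres (3.54%). The lower shoulder and not the centre held it in 65 members and the centre and not the lower shoulder in 28, and for the higher shoulder the counts were 58 and 28. Octamers were in 6.72% and 6.47% of shoulders against 3.42% of centres. For the SOX core the shares were 18.9% and 16.2% in the shoulders and 14.5% in the centre, with overlapping 95% Wilson intervals of 16.4 to 21.8%, 13.9 to 18.9% and 12.3 to 17.1%.

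A composite match in either shoulder was present in 121 members (14.8%), and in both shoulders of 4. Set against the centres of comparison peaks (10.9%), single shoulders remained lower for the composite motif. The odds ratios were 0.719 and 0.637, closer to 1 than the 0.301 of the centres. For octamers the odds ratios were 0.765 and 0.736. The shoulders were placed where matches had been seen and stand against the densest part of comparison peaks, so these odds ratios are description only. Among the members of at least 1000 bp, 15 of 156 held a composite match in each shoulder (9.62%) and 2 in the centre (1.28%).

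**Figure D4:**
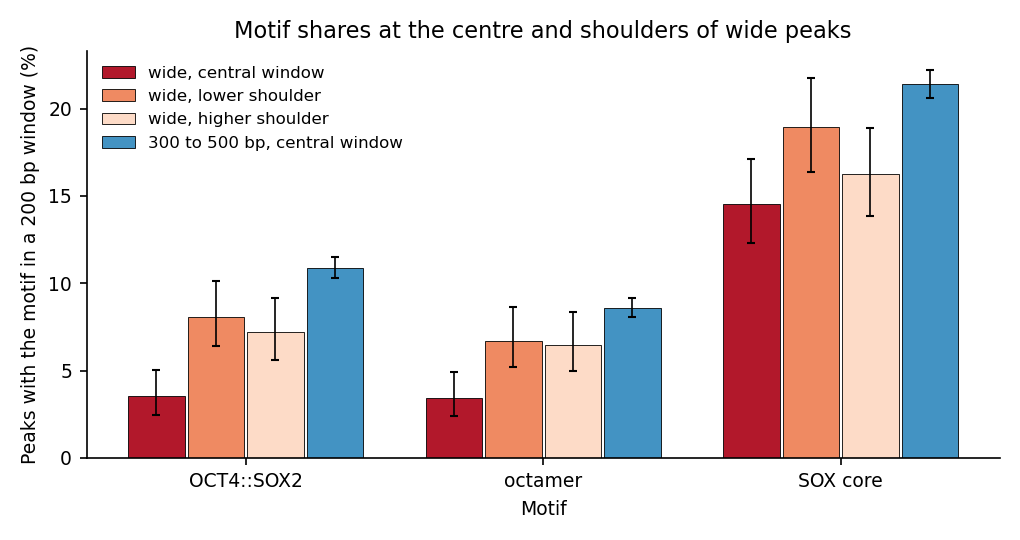
Percent of peaks with an OCT4::SOX2 motif, an octamer or a SOX core in a 200 bp window (y axis), at the centre and both shoulders of wide peaks and at the centre of comparison peaks; bars carry 95% Wilson intervals. For OCT4::SOX2 the wide centre (3.54%) is lowest, the shoulders (8.06% and 7.20%) are between, and comparison centres (10.9%) are highest.

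Members with more than 1 match were few. There were 157 with 1 match, 17 with 2 and 2 with 3 or more, and 19 of 819 (2.32%) against 41 of 10213 comparison peaks (0.401%) held at least 2, in windows of unequal width. In the 17 members with 2 matches, the matches were a median of 451 bp apart (27 to 1032 bp), and in 13 of them at least 200 bp. These included peaks near Cdh8 (1032 bp apart), Mmp17 (609 bp), Dlk1 (527 bp) and Cadps (451 bp). Match quality was similar in both sets: 41 of 202 matches in members (20.3%) and 274 of 1373 in comparison peaks (20.0%) had at most 2 mismatches. No member held the exact consensus, and the 4 best matches, each with 1 mismatch and written in the orientation of the motif, were these.
Grap2, chr15:80619175-80619189, reverse strand: CTTTGTTATGCAAAT
Nedd1, chr10:92163388-92163402, reverse strand: CATTGTTATGTAAAT
Ccser2, chr14:36914787-36914801, reverse strand: CATTGTTATGCAAAG
Tmem38b, chr4:53951891-53951905, reverse strand: CATTCTTATGCAAAT

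At the other end, 255 members (31.1%) held none of the 3 OCT4 and SOX motifs (composite, octamer, SOX core) anywhere in their width, beside 55.3% of the narrower comparison peaks. In 288 (35.2%) at least a composite match or an octamer was present, beside 20.8%. The unequal widths leave both shares without a test.

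Motifs of other factors were searched without mismatch. In the central 200 bp none of 12 differed between members and comparison peaks after Benjamini-Hochberg adjustment over the 12, and 3 had an unadjusted p under 0.05. These were the KLF motif CCACACCC (2.32% against 3.79%, odds ratio 0.603), the ESRRB motif TCAAGGTCA (2.56% against 1.62%, odds ratio 1.60) and the ZIC motif CCTGCTG (7.94% against 10.6%, odds ratio 0.730), all with an adjusted p of 0.192 by Fisher's exact test. In the shoulders the ZIC motif was in 6.72% and 7.33% of members, set against the 10.6% in centres of comparison peaks. It passed the threshold there (adjusted p = 0.00383 and 0.0335, Fisher's exact test), in unlike windows that were placed after seeing the data. Over the full width the ESRRB motif, bound by an orphan nuclear receptor of the pluripotency network, had 0.0952 matches per kb in members and 0.0319 in their flanks (ratio 2.99), and the corresponding ratio in comparison peaks was 2.64. Its shares of 1.34% and 1.95% in the shoulders stood beside 2.56% in the centre. The KLF motif had a ratio to flanks of 2.04 in members and 2.29 in comparison peaks, AP-2 (GCCNNNGGC) 2.26 and 2.02, and the ZIC motif 1.58 and 1.92. Flanks had no repeat limit and were poorer in GC. Their median GC content was 43.5% against 46.4% in members, and 44.2% against 46.7% for comparison peaks. The part of this in any ratio to flanks was not tested.

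A search of all 2080 6-mers (joined with their reverse complements) in the central 200 bp gave 13 that were more frequent in members (0.625% of those tested) and 24 that were less frequent (1.15%), at an adjusted p under 0.05 by Fisher's exact test. All 37 calls were lost against peaks between 500 and 750 bp and with members of at least 1000 bp. The second of these runs held only 156 members, so its lost calls do not show that the differences are absent. The 5 most depleted were CATAAC (4.88% against 8.71%), GCATAA (7.20% against 12.3%), ATGCAT (4.88% against 8.14%), TATGCA (12.2% against 19.4%) and ATAACA (8.67% against 13.5%). Read on either strand, 4 of these 5 are parts of the composite consensus across the junction of the SOX site and the octamer, and none of the 5 most enriched is. Those were AT-rich, CTTATA (6.96% against 3.56%), AGTATA (5.98% against 3.25%), AACTTA (10.1% against 5.75%), CTATAA (7.81% against 4.79%) and ATTATA (8.18% against 5.04%). With members read in the lower shoulder instead, and comparison peaks still at the centre, 4 6-mers were higher (0.192%) and 1 lower (0.0481%), none of them among those 10. The higher ones were AAAAAA (21.6% against 13.9%), AAAATT (13.9% against 9.20%), AAAAAT (a ratio of 1.51) and AAATTA (16.2% against 11.3%), and the lower one was CAGCAG (17.2% against 24.1%). In the higher shoulder 0 passed.

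Wide peaks were no more often promoter-proximal than comparison peaks. A midpoint within 1 kb of a protein-coding TSS was found for 115 members (14.0%, 11.8 to 16.6%) and for 1456 comparison peaks (14.3%), an odds ratio of 0.982 (0.801 to 1.21, p = 0.917, Fisher's exact test). The other 704 members were distal, a median of 25.3 kb from a TSS, and 129 lay more than 100 kb away. CpG-rich centres, with GC of at least 50% and a CpG ratio of at least 0.6, were found in 7.08% of members and 6.98% of comparison peaks (odds ratio 1.02, 0.769 to 1.34, p = 0.887, Fisher's exact test).

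By annotation, 393 member midpoints (48.0%) were intergenic and 350 (42.7%) intronic, against 42.8% and 48.5% of comparison peaks, with odds ratios of 1.23 (adjusted p = 0.0142) and 0.792 (adjusted p = 0.00933, Fisher's exact test over 6 categories). Coding exons held 21 members (2.56% against 1.47%, odds ratio 1.77) and 3′ UTRs held 5 (0.611% against 1.51%, odds ratio 0.401), both at an adjusted p of 0.0491. The calls for coding exons and 3′ UTRs were lost without multi-copy regions (adjusted p = 0.0681 for each, Fisher's exact test), and all 4 were lost against peaks between 500 and 750 bp. The 21 coding-exon members included 3 in ribosomal protein genes (Rpl21 of 1597 bp, Rps2 of 1111 bp and Rpl7a of 988 bp), 3 in histone genes (Hist1h1e, Hist1h1c and Hist4h4, 829 to 992 bp) and Ftl1, the ferritin light chain. These names were chosen after their values were seen. The multi-copy share of 31-mers was 15.4% at Rpl21, 35.5% at Rps2 and 14.6% at Rpl7a.

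The wide promoter peaks differed from wide distal peaks in CpG content and SOX cores. CpG-rich centres were found in 36 of 115 (31.3%) against 22 of 704 (3.13%), an odds ratio of 14.1 (7.91 to 25.2, adjusted p = 2.655e-18, Fisher's exact test over 5 measures). The SOX core was in 5.22% of promoter and 16.1% of distal centres (odds ratio 0.288, adjusted p = 0.00368, Fisher's exact test). In the lower shoulders it was in 20.0% and 18.8% (odds ratio 1.08), so that the difference held for the centre and not for that window. The composite motif was in the centre of 1 promoter member (0.870%) and 28 distal members (3.98%, adjusted p = 0.178, Fisher's exact test), and the octamer in 3.48% and 3.41%. In the shoulders of promoter members the composite motif reached 6.09% and 8.70%.

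Against comparison peaks of the same class, distal members had the composite motif in the centre less often (3.98% against 11.8%, odds ratio 0.309, p = 1.922e-12, Fisher's exact test). For promoter members the share was 0.870% against 5.22% (p = 0.0395), a call that rests on 1 peak and was lost in a 300 bp window (1.74% against 5.70%, p = 0.0839, Fisher's exact test). The 5 widest promoter members lay at AW822073, Ran, Hnrnpa3, Rpl21 and the Drg1 and Sfi1 promoter (1388 bp). The midpoints at AW822073 and Rpl21 were in coding exons and the others in introns, so not all need mark the main promoter of a gene. The CpG ratios of these peaks were unlike one another, at 0.822 for Ran and 0.708 for the Drg1 and Sfi1 peak. Hnrnpa3 had 0.193, AW822073 0.315 and Rpl21 0.346. None of the 5 held a composite match or an octamer.

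Another OCT4 peak had its midpoint within 10 kb of 265 members (32.4%) and of 33.6% of comparison peaks (odds ratio 0.944, 0.811 to 1.10, p = 0.465, Fisher's exact test). Within 5 kb members had a neighbour less often, 12.6% against 18.6% (odds ratio 0.629, p = 9.02e-06, Fisher's exact test). Measured from edge to edge, an alternative added after seeing the data, the 5 kb shares were 16.0% and 19.9% (odds ratio 0.766, p = 0.00606, Fisher's exact test). Peaks that were joined count as width and not as neighbours, and the midpoint of a wide peak lies farther from other peaks. Edge-to-edge distances take out the second of these only, and the part of both in the shares was not tested. Within 50 kb the order turned, at 81.1% and 78.8%, without passing the threshold. Each chromosome except Y held between 21 (chromosome 18) and 67 (chromosome 4) members. Of these 22 lay on X (2.69%, against 2.45% of comparison peaks, odds ratio 1.10, p = 0.640, Fisher's exact test).

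The 819 members had 756 different nearest genes, and 699 of these were nearest to 1 member. Adgrl2, an adhesion receptor gene, was nearest to 4, and Dusp6, Pde4d, Qk and Sfi1 to 3 each. Of all 21938 protein-coding genes, 1089 (4.96%) had a member within 50 kb of a TSS, and 44.7% had a comparison peak there.

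Among 16 core pluripotency factors 6 had a wide peak within 50 kb (37.5%), and 14 a comparison peak (87.5%). At Nanog, which encodes a homeodomain factor of the naive state, it was a peak of 967 bp, 4.76 kb upstream (chr6:122702251-122703217), with no composite match or octamer and 2 SOX cores, 1 of which is shown above. Klf5, a Krüppel-like factor gene, had 2 intergenic wide peaks, of 762 bp 19.9 kb upstream with a SOX core and of 895 bp 40.9 kb downstream with an octamer. Tet2, whose product oxidises methylated cytosine, had 2 in introns, of 872 bp and 756 bp, with 1 and 2 SOX cores. Single wide peaks lay 15.3 kb downstream of Klf2 (762 bp), 41.1 kb downstream of Tbx3 (800 bp) and 13.2 kb downstream of Sall4 (1019 bp). The last was promoter-proximal to another gene, Atp9a, with its midpoint 0.314 kb upstream of that TSS. None of these 8 wide peaks held a composite match, which 21.5% of all members did. Pou5f1, Sox2 and Esrrb had comparison peaks and no wide peak within 50 kb.

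Among 20 signalling genes 7 had a wide peak within 50 kb (35.0%), and 17 a comparison peak (85.0%). Both subunits of the LIF receptor were included, Il6st as described and Lifr with a peak of 868 bp (chr15:7115413-7116280) in an intron, 13.7 kb upstream of its nearest TSS, with a composite match 22 bp from the midpoint and 2 octamers. Tdgf1, which encodes the NODAL co-receptor CRIPTO, had one of 1256 bp at 1.57 kb upstream with an octamer and a SOX core. Inhibitors of FGF and ERK signalling were Spry2 (798 bp, 24.0 kb upstream), Spry4 (1036 bp, 35.1 kb upstream, with 2 ESRRB motifs) and Dusp6 (765 bp, 33.3 kb downstream). The WNT feedback gene Axin2 had a peak of 753 bp over its 5′ UTR, with a GC content of 72.9%, the highest among members, and none of the 3 OCT and SOX motifs.

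**Figure D5:**
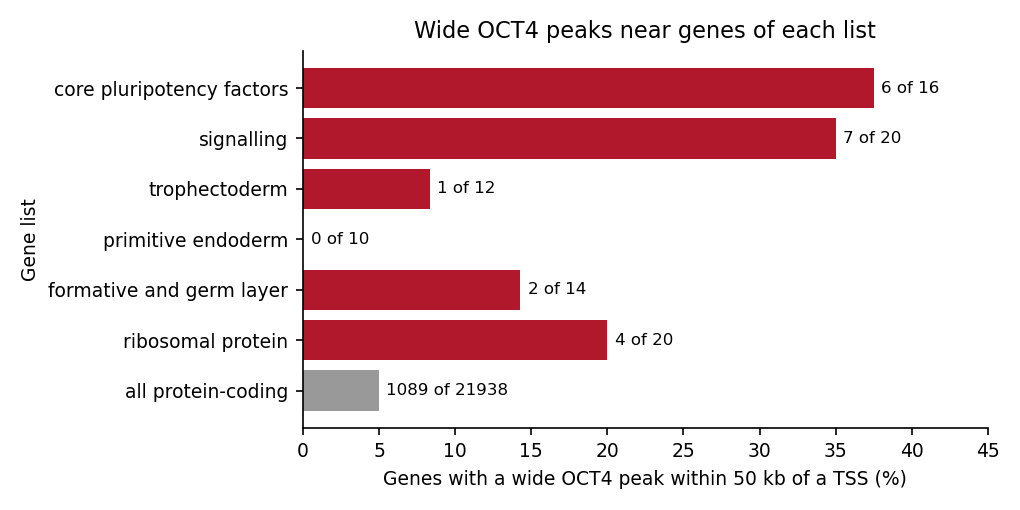
Percent of genes in each list with a wide OCT4 peak within 50 kb of a TSS (x axis), with counts at the bars; the grey bar is the share over all protein-coding genes (4.96%). Core pluripotency factors (6 of 16) and signalling genes (7 of 20) have the longest bars, ribosomal protein genes (4 of 20) come next, and primitive endoderm (0 of 10) has none.

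Of 12 trophectoderm genes 1 had a wide peak, Cdx2, the factor that opposes OCT4 in the early embryo, with 1019 bp in an intron 2.59 kb downstream of its TSS. Of 14 formative and germ layer genes 2 had one, Otx2 (908 bp, 7.14 kb downstream) and Foxd3 (1016 bp, 19.8 kb upstream). None of 10 primitive endoderm genes did, while 6 had a comparison peak. Of 20 ribosomal protein genes, a housekeeping list, 4 had a wide peak (20.0%) and 6 a comparison peak (30.0%). The lists are short and were drawn up with earlier results of these data known, so the shares describe these genes and were not tested.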

How the data were processed

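ChIP-seq for OCT4 was performed in 2TS22C cells in 4 libraries, 2 SOX2 ON and 2 SOX2 OFF. The authors aligned reads to mm10 with STAR 2.6.1c, removed duplicates with Picard, called peaks with MACS2 2.1.1.20160309 in paired-end mode and merged peaks with BEDTools. The deposited list gives coordinates only. Which libraries were merged is not given in the sources used here. The BRG1 and H3K27ac libraries were not analysed here.

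Sequence was read from GRCm38 and genes from GENCODE M21. A peak was promoter-proximal when its midpoint was at most 1 kb from any protein-coding TSS. Every annotated transcript of a protein-coding gene gave a TSS, including transcripts that start inside the gene. Each midpoint got 1 category, with 5′ UTR before coding exon, and these before 3′ UTR, other exons, introns and intergenic sequence. Motifs were searched on both strands. Beyond those spelled out in the text, they were TCF (CTTTGAT), STAT (TTCCNGGAA), TEAD (GGAATG), SP (GGGGCGGGG), ETS (CCGGAAGT), CRE (TGACGTCA), YY1 (AAGATGGCG) and E-box (CACGTG); the octamer is part of the composite. Fisher's exact test (two-sided) compared shares, and Mantel-Haenszel odds ratios were used within 4 classes of GC content. The 6-mer test was checked on simulated data. Python 3.11.15, NumPy 2.4.6, SciPy 1.17.1, statsmodels 0.14.6 and matplotlib 3.10.9 were used. Named were the 10 widest members, the 5 with most composite matches, the 5 widest at promoters, those within 50 kb of a listed gene, and the 5 6-mers with the largest and smallest ratios present in at least 5% of either set. Other names were chosen after their values were seen. The ribosomal protein genes near wide peaks are given by their count, and not every one is named here. The members, lists and tests were chosen with earlier results of these data known. Shoulder windows, full-width shares and edge-to-edge distances were added after seeing the data.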

Additional observations from a re-analysis of the deposited data

How the results depend on the processing

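The list holds no height, summit or value per library, so each midpoint is the middle of a merged interval. No paired analysis was possible because peaks have no values by replicate, and leaving out a replicate was not run for the same reason. Odds ratios below compare members with comparison peaks. The lower composite share in centres, overall and in distal peaks, kept its direction and stayed past the threshold in every alternative run. Each of these runs still placed its window by the ends of the merged interval.

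With members of at least 1000 bp the odds ratio was 0.499 for the octamer and 0.668 for the SOX core, both no longer past the threshold, 0 for the composite motif at promoters, 0.475 for the ring 100 to 150 bp from the midpoint (1.37 with all members, p = 0.272, Fisher's exact test) and 1.14 for neighbours. AP-2 stood at 1.08, SP at 1.09 and CRE at 0, each on the other side of 1. Calls fell from 4 to 0 for annotation categories, from 2 to 1 between promoter and distal members and from 37 to 0 for 6-mers. That set held 156 members, so a lost call there does not show that a difference is absent. Genes with a member fell from 6 to 1 for core pluripotency, 7 to 3 for signalling, 2 to 1 for formative and germ layer and 4 to 1 for ribosomal protein genes. The share over all protein-coding genes fell as well, from 4.96% to 1.03%. With less than 25% lower-case bases, 0 annotation categories were called, and 3 core pluripotency and 2 ribosomal protein genes had a member, beside 3.71% of all protein-coding genes. Under that limit the composite motif at promoters was at 0.186 (p = 0.0851, Fisher's exact test), and ETS (0.747), the X chromosome (0.982) and the octamer between promoter and distal members (0.980) crossed 1. Against peaks between 500 and 750 bp, 0 annotation categories and 0 6-mers were called, and the ring was at 0.443 (p = 0.00171, Fisher's exact test). Without multi-copy regions 2 annotation categories were called. On chromosomes 1 to 19 the CpG-rich share was at 0.992.

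The composite motif at promoters was at 0 with at most 2 mismatches and, with 3 again allowed, at 0.293 in the central 300 bp, both no longer past the threshold. With at most 4 mismatches the ring reached 1.84 (p = 3.873e-06, Fisher's exact test). TSSs of every gene put the promoter share at 1.17. Neighbours gave 0.629 within 5 kb, 1.15 within 50 kb and 0.766 from edge to edge. With genes within 10 kb, members lay near 1 core pluripotency gene, 2 signalling, 1 formative and germ layer and 2 ribosomal protein genes. The share over all protein-coding genes was 1.66% there. Within 100 kb it was 8.79%, with 8 core pluripotency genes (50.0%) and unchanged counts in the other lists.

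Except between promoter and distal members, shoulder windows of members were set against the centres of comparison peaks. They were placed after the positions had been seen, so their calls are description only. In lower shoulders the octamer (0.765) and the SOX core (0.857) no longer passed, 5 6-mers were called, and the composite motif at promoters was at 1.18. In higher shoulders that value was 1.73 and 0 6-mers were called. In each shoulder 1 of 12 other motifs, ZIC, was called (0 in centres). Between promoter and distal members no motif was called in a shoulder. The 1 call left there was the CpG-rich share, which was still read in the centre. Odds ratios that crossed 1 were, in lower shoulders, KLF 1.17, ESRRB 0.829, TCF 0.955, STAT 0.822, ETS 0.935, YY1 0.593 and E-box 0.849, and in higher shoulders TCF 0.999, STAT 0.822, AP-2 1.11, SP 1.04 and ETS 0.935. Between promoter and distal members they were the octamer (0.886) and the SOX core (1.08) in lower shoulders and the composite motif (1.27) in higher ones. The cause of these changes was not tested.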
